A study of Mus musculus with 6 samples.

Results

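Phycocyanin (PC), the blue light-harvesting protein of cyanobacteria, was compared with irradiation alone in mouse tumors treated by photodynamic therapy (PDT), in which a photosensitizer is activated by light within the tissue. The comparison used the 2 PC-La and the 2 Laser samples, 4 of the 6 samples of the series. It covered 10853 of the 21899 genes listed, namely those with a mean of at least 1 FPKM (fragments per kilobase of exon, scaled to the fragments counted in the sample) over the 6 samples. Tumors were grown under the skin of male C57BL/6 mice from Lewis lung carcinoma (LLC) cells carrying luciferase, a transplantable mouse tumor line, and both groups shared this line and strain. In PC-La, according to the labels, PC was given into the tumor, and irradiation at 620 nm for 10 min followed 4 h later, repeated at intervals of 5 days. The Laser group received the same irradiation, with saline in place of PC according to the methods, and the methods give another wavelength and injection interval than the labels and place the injection beneath or beside the tumor. The SePC-La samples, from tumors given selenium-enriched PC before irradiation, entered the fit only to estimate the spread. Neither the age of the mice nor the mouse of each sample was given in the labels, so that p-values measure the spread between samples, which may be technical.

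The genes described most fully belong to the interferon response. Interferons bind cell surface receptors and activate transcription factors, the interferon regulatory factors among them, which switch on antiviral genes, guanylate-binding proteins (GBPs) and immunity-related GTPases that attack intracellular pathogens, and the machinery that cuts and displays peptides on MHC molecules. MHC class I presents peptides from within the cell and is made by almost all cells, whereas class II presents engulfed material to helper T cells and is made mainly by dendritic cells, macrophages and B cells under the coactivator CIITA. In tumors, the chemokines CXCL9 and CXCL10, which interferon gamma induces, attract T cells and NK cells.

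The promoters of 4 interferon-inducible genes and of a pair of class II genes are shown because these families carried the largest groups of higher genes. The bases lie directly before or close to the transcription start in RefSeq on GRCm38.p6, 5' to 3' on the strand of the gene. Capitals mark the ISRE core, in which any 2 bases part 2 runs of GAAA, the type of site bound by interferon regulatory factors, the gamma-activated (GAS) site TTCNNNGAA, or the Y box CTGATTGG of MHC promoters, each on either strand.
Igtp (chr11:58199456-58199555, plus strand): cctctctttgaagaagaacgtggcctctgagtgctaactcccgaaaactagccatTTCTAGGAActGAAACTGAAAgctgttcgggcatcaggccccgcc
Tgtp2 (chr11:49064228-49064327, minus strand): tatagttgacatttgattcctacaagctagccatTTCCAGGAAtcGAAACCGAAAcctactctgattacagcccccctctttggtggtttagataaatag
Ifit3 (chr19:34583328-34583427, plus strand): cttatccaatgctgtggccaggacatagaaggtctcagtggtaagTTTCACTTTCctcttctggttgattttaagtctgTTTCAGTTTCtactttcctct
Isg15 (chr4:156200842-156200941, minus strand): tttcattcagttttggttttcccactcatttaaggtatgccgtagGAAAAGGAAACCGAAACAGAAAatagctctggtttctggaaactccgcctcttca
H2-Eb1 (chr17:34305759-34305858, plus strand): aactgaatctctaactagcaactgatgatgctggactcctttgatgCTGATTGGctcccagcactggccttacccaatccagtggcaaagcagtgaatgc
H2-Aa (chr17:34287824-34287923, minus strand): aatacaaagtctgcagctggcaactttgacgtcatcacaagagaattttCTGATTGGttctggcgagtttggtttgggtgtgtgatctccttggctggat
Igtp and Tgtp2 each had a GAS site next to an ISRE core, and Isg15 had 3 overlapping ISRE cores. Within 250 bases before to 50 bases after the start, the ISRE core was present in 3.99% of 27025 genes of the promoter table. It was present in 10 of 13 matched genes among the 21 tested interferon-inducible GTPases (76.9%), in 15 of 26 matched interferon-stimulated genes (57.7%) and in 5 of 17 matched class I genes (29.4%). The GAS letters were found in 9.55% of all genes, in 6 of the 13 GTPase genes and in 5 of the 26 interferon-stimulated genes. The Y box letters were found in 4.7% of all genes, in 2 of 5 matched class II genes and in 7 of the 17 class I genes, and in none of the matched GTPase or interferon-stimulated genes. Matches of either strand and overlapping matches were counted, and a match of letters is a description and not a bound site.

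The samples were of similar depth, and Laser replicate 2 stood apart. The total reads per sample implied by the FPKM values and the gene lengths lay between 14965281 and 17649489 in the 4 samples. Between the Laser samples 565 genes differed by over 1 on the log2(FPKM + 1) scale, compared to 21 between the PC-La samples, and the median absolute difference was 0.234 and 0.110. The PC-La mean differed by over 1 from Laser replicate 1 in 90 genes and from Laser replicate 2 in 706 genes. For this reason each list, and the genes with the largest differences, are also given as the difference of the PC-La mean from each Laser sample alone, a value without a test.

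Of 9 epithelial and carcinoma genes, the keratin genes Krt8 and Krt18 passed the filter, with 83.1 and 114 FPKM after Laser and 96.6 and 93.8 FPKM after PC-La for Krt8 and 126 and 136 FPKM after Laser and 166 and 122 FPKM after PC-La for Krt18. The other 7, the cadherin gene Cdh1 and the claudin genes among them, lay below it, and all 7 lung epithelium genes, Sftpc, Scgb1a1 and Nkx2-1 among them, did so too. Epcam had at most 0.129 FPKM. The summed FPKM of the 12 tested skeletal muscle genes was 42.6 and 224 in the Laser samples and 19.00 and 19.1 in the PC-La samples, so that Laser replicate 2 held the most muscle RNA. That of 6 mast cell, basophil and eosinophil genes was 153 in Laser replicate 1 and 3.27 in Laser replicate 2, with 28.2 and 15.2 in PC-La. Fibroblast and mural cell genes summed to 719 and 132 FPKM in Laser and to 1152 and 949 FPKM in PC-La. Macrophage identity genes were the highest of these lists, between 1906 and 2594 FPKM. The part of these differences in tissue make-up in the results below was not tested, and in bulk samples fewer cells of a type and less RNA per cell cannot be told apart.

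**Figure D1:**
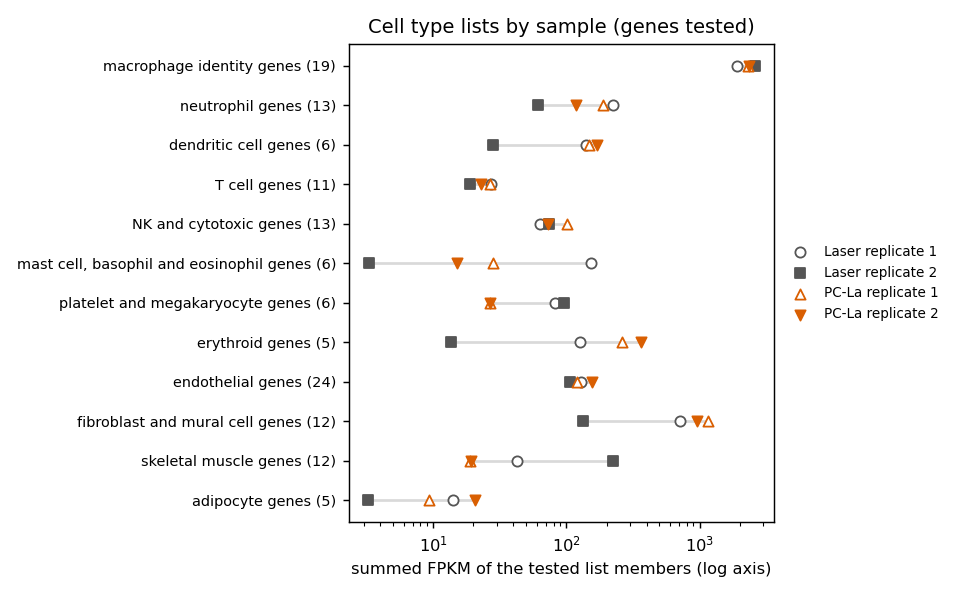
Summed FPKM of the tested members of 12 cell type lists (number of genes in parentheses) in each Laser and PC-La sample, on a log axis. Skeletal muscle genes were highest in Laser replicate 2, mast cell genes spanned 3.27 to 153 FPKM between the Laser samples, and the platelet sum was lower in both PC-La samples, carried by Pf4 and Ppbp.

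Genes were counted at the criterion of the study, an absolute log2 fold change over 1 with an unadjusted p under 0.05, here from limma, with values as log2(FPKM + 1), which shrinks the folds of genes near or under 1 FPKM. It was met by 94 genes higher in PC-La, 0.866% of those tested, and by 46 lower genes, 0.424%. After adjustment over all genes in limma 0 had p under 0.05, where 627 had an unadjusted p under 0.05, and the smallest adjusted p was 0.406. Both PC-La samples lay above both Laser samples in 20.4% of the genes tested and below both in 21.6%. The PC-La mean exceeded each Laser sample by over 1 in 30 genes (0.276%) and lay under each by over 1 in 19 genes (0.175%), of which 28 and 19 met the criterion. With Laser replicate 2 left out of the fit, 41 genes were higher and 40 lower at the criterion, and with Laser replicate 1 left out these counts were 518 and 146. Leaving out PC-La replicate 1 gave 94 and 27 genes, and PC-La replicate 2 38 and 33.

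**Figure D2:**
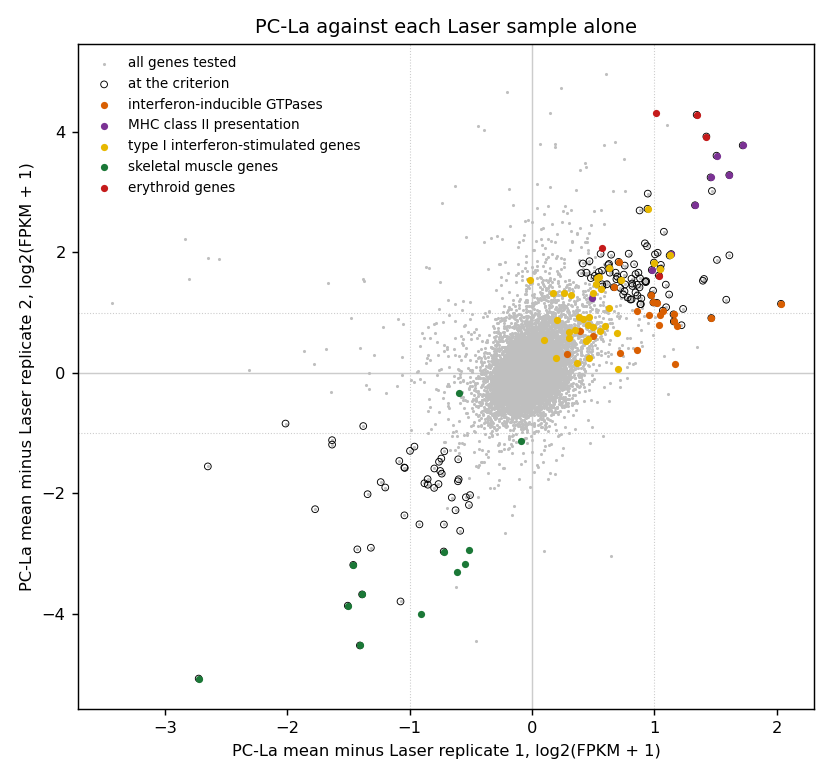
Each point is a gene, placed by the PC-La mean minus Laser replicate 1 (x axis) and minus Laser replicate 2 (y axis), both in log2(FPKM + 1), with 5 gene lists in colour and genes at the criterion circled. The medians of the interferon-inducible GTPases are 0.99 on the x axis and 0.95 on the y axis. Their members are spread, from 0.29 (Gm5431) to 1.59 (Gbp2b) against the Laser mean. Class II genes reach 3.78 on the y axis with H2-Eb1, and muscle genes lie lower left.

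Interferon and antigen presentation genes formed the largest group of higher genes. Of 106 tested genes in 6 lists (GTPases, receptors and transcription factors, interferon-stimulated genes, class I, class II and lymphocyte-attracting chemokines), 30 met the criterion as higher and 0 as lower. Both PC-La samples exceeded both Laser samples in 96 of the 106. Of all genes tested, 20.4% did so and 0.866% met the criterion as higher. Their median log2 difference was 0.66, or 0.52 against Laser replicate 1 and 0.80 against Laser replicate 2, where the medians of all genes tested were -0.01 and 0.01. Against Laser replicate 1 alone 101 of the 106 were higher, and against Laser replicate 2 alone 105. Of the 30 genes at the criterion, 12 exceeded each Laser sample by over 1.

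The GTPases, which coat and disrupt the vacuoles of intracellular microbes, differed in the median by nearly the same amount from both Laser samples. Single members such as Gbp2 did not. All 21 tested members (of 25 listed, 2 were below the filter and 2 were not analysed here) had both PC-La samples above both Laser samples, and 10 met the criterion. The median difference was 1.00, or 0.99 against Laser replicate 1 and 0.95 against Laser replicate 2, and the Laser samples differed by a median of 0.03. Igtp (Irgm3), on chromosome 11 from 58199556 to 58207591 (GENCODE M21 annotation of GRCm38, as for all gene positions), had 45.7 and 56.7 FPKM after Laser and 99.9 and 107 FPKM after PC-La. Both PC-La values were near 100 and no Laser value exceeded 56.7, which gave a log2 fold change of 1.01 (SE 0.14, adjusted p = 0.406 from limma), so close to the threshold that it fell under it in the fit lacking Laser replicate 1 (0.85), in that lacking PC-La replicate 2 (0.96) and with median-ratio or quantile scaling. Iigp1, which encodes an immunity-related GTPase, stood at 29.1 and 43.3 FPKM after Laser and 72.04 and 93.8 FPKM after PC-La, and its log2 fold change was 1.19 (SE 0.22, adjusted p = 0.43 from limma). Gm4951 and F830016B08Rik, both annotated as interferon-inducible GTPase-like genes, had 8.47 and 7.56 FPKM after Laser and 17.1 and 19.4 FPKM after PC-La, and 3.42 and 2.904 FPKM after Laser and 6.52 and 9.24 FPKM after PC-La, respectively. The groups did not overlap in either gene, and the log2 fold changes were 1.09 (SE 0.14) and 1.08 (SE 0.19).

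The GBPs lie in 2 clusters, on chromosome 3 from 142493978 to 142638008 and on chromosome 5 from 105014150 to 105293698, with 5 tested genes each. All 10 had both PC-La samples above both Laser samples, with a median difference of 0.98, or 0.96 against each Laser sample. Gbp2b (Gbp1) had the largest difference of the GTPase list, from 0.789 and 2.31 FPKM in Laser to 4.69 and 8.43 FPKM in PC-La, with 2.03 against Laser replicate 1 and 1.15 against Laser replicate 2. The most expressed member, Gbp2, had 103 and 209 FPKM after Laser and 209.5 and 258 FPKM after PC-La, and here Laser replicate 2 lay just under PC-La replicate 1 (1.17 against Laser replicate 1 and 0.15 against Laser replicate 2). Gbp4, Gbp8 and Gbp9 of the chromosome 5 cluster met the criterion, with log2 fold changes of 1.13, 1.28 and 1.05, and Ifi47 and Tgtp2 of the chromosome 11 family with 1.05 and 1.06. Members of these families are near copies, and Gbp4, Gbp8 and Gbp9, as well as Igtp and Irgm2, overlap in the annotation, so that the split of reads between them is uncertain. In fits without 1 sample, the number at the criterion was 8 without Laser replicate 1, 10 without Laser replicate 2, 14 without PC-La replicate 1 and 2 without PC-La replicate 2.

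Upstream of these genes, transcription factors of the pathway were higher in PC-La. Irf7, which amplifies type I interferon production, had 8.05 and 6.75 FPKM after Laser and 15.4 and 14.6 FPKM after PC-La, a difference of 0.93 under the fold of the criterion. Stat2, Irf9 and Irf1, also factors of the pathway, differed by 0.66, 0.61 and 0.62, each with groups that did not overlap. The receptor genes Ifngr1 and Ifnar1 had 36.8 and 49.9 FPKM after Laser and 43.6 and 46.3 FPKM after PC-La, and 15.1 and 12.05 FPKM after Laser and 14.4 and 14.8 FPKM after PC-La, and their groups overlapped. Over the 16 tested receptors and factors the median difference was 0.33, or 0.24 against Laser replicate 1 and 0.54 against Laser replicate 2, and 10 had both PC-La samples above. Interferon gamma itself, Ifng, was under the filter, with 0.737 and 0.744 FPKM after Laser and 0.889 and 0.774 FPKM after PC-La.

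Of 35 tested genes induced by type I interferon, 8 met the criterion and 34 had both PC-La samples above both Laser samples. The exception was Oas2, a sensor of double-stranded RNA, with 9.78 and 2.69 FPKM after Laser and 9.39 and 9.97 FPKM after PC-La, where PC-La replicate 1 lay under Laser replicate 1. The median difference of the list was 0.69, or 0.47 against Laser replicate 1 and 0.92 against Laser replicate 2. Ifit3, an antiviral RNA-binding protein gene, had 10.6 and 5.55 FPKM after Laser and 23.7 and 24.97 FPKM after PC-La. The PC-La samples were close together, the Laser samples were lower and apart, and the log2 fold change was 1.54 (SE 0.39, adjusted p = 0.684 from limma). Isg15, a ubiquitin-like modifier, had 25.1 and 11.1 FPKM after Laser and 40.3 and 38.5 FPKM after PC-La with a log2 fold change of 1.18 (SE 0.35, adjusted p = 0.753 from limma). Ifi44 showed the largest difference of the list, 1.83 (SE 0.61), with 5.04 and 0.758 FPKM after Laser and 11.6 and 9.76 FPKM after PC-La and with 0.94 against Laser replicate 1 and 2.72 against Laser replicate 2. The other members at the criterion were Ifit1 (1.41), Ifit3b (1.39), Zbp1, a nucleic acid sensor (1.13), Oas1a (1.07) and Oas1g (1.06), of which Ifit3 and Ifit3b, and Oas1a and Oas1g, are near copies. The number at the criterion was 16 without Laser replicate 1, 2 without Laser replicate 2, 4 without PC-La replicate 1 and 3 without PC-La replicate 2.

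**Figure D3:**
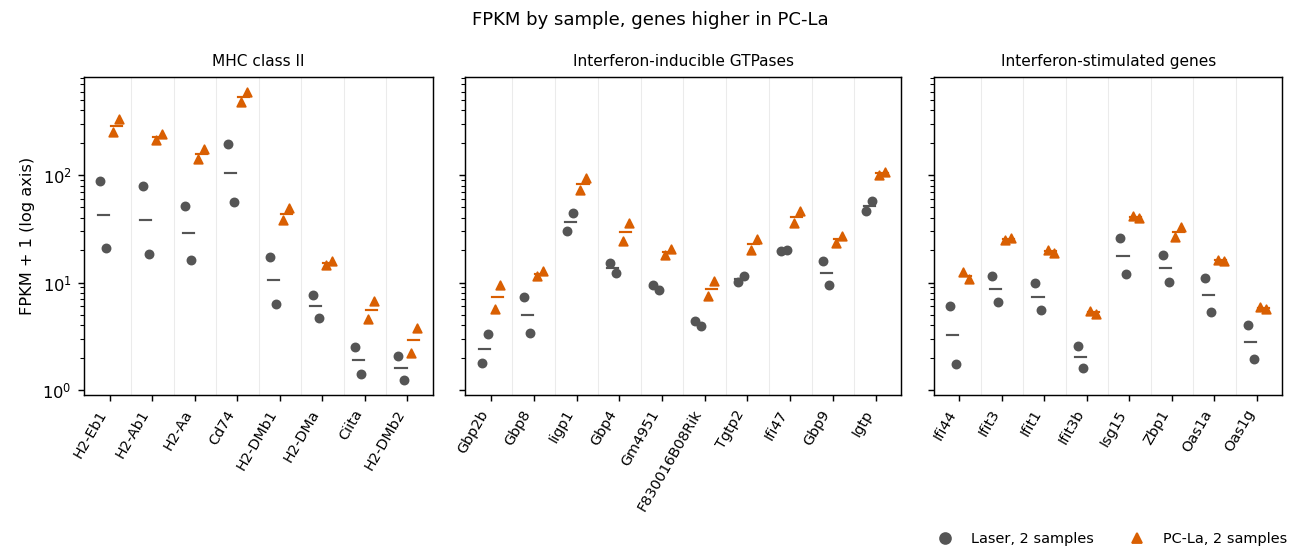
FPKM + 1 on a log axis for class II genes, the GTPases at the criterion and interferon-stimulated genes, with Laser samples as circles and PC-La samples as triangles, replicate 1 left of replicate 2, and a line at each group's mean on the log scale. In every gene drawn, both PC-La samples lie above both Laser samples, and in class II genes Laser replicate 2 lies under Laser replicate 1.

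Class I genes were higher by smaller and more even amounts. Of 21 tested, 19 had both PC-La samples above both Laser samples, and the median difference was 0.44, or 0.40 against Laser replicate 1 and 0.55 against Laser replicate 2. B2m, the light chain of all class I molecules, had 2180.5 and 2049 FPKM after Laser and 2859 and 3049 FPKM after PC-La, a difference of 0.48 (SE 0.13, adjusted p = 0.69 from limma). H2-K1 and H2-D1, the classical heavy chains, had 228 and 184 FPKM after Laser and 282 and 309 FPKM after PC-La, and 733 and 562 FPKM after Laser and 944 and 932 FPKM after PC-La, and differed by 0.52 (SE 0.15) and 0.55 (SE 0.16). Only Psmb8, a subunit of the immunoproteasome that cuts peptides for class I, met the criterion, with 3.26 and 1.64 FPKM after Laser and 6.42 and 7.29 FPKM after PC-La and a log2 fold change of 1.23 (SE 0.37). It fell short of the criterion when Laser replicate 2 (0.88) or PC-La replicate 2 was left out.

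Class II genes had the largest differences of the interferon and presentation lists. Of 8 tested genes, 7 met the criterion and all 8 had both PC-La samples above both Laser samples, with a median difference of 2.21, or 1.40 against Laser replicate 1 and 3.02 against Laser replicate 2. H2-Eb1, the class II E beta chain on chromosome 17 from 34305867 to 34316674, had 86.4 and 19.99 FPKM after Laser and 249 and 330.3 FPKM after PC-La. Laser replicate 2 lay far under Laser replicate 1, and both PC-La samples exceeded the higher of them, with a log2 fold change of 2.75 (SE 0.66, adjusted p = 0.676 from limma) and 1.72 against Laser replicate 1 and 3.78 against Laser replicate 2. H2-Aa and H2-Ab1, the chains of the A molecule, had 50.8 and 15.2 FPKM after Laser and 141 and 175 FPKM after PC-La, and 78.4 and 17.5 FPKM after Laser and 209 and 241 FPKM after PC-La. Their log2 fold changes were 2.45 (SE 0.53, adjusted p = 0.629 from limma) and 2.56 (SE 0.66, adjusted p = 0.708 from limma). Cd74, the invariant chain that guides class II to the endosome, was the most expressed with 194 and 55.3 FPKM after Laser and 475 and 599 FPKM after PC-La, and differed by 1.46 against Laser replicate 1 and 3.25 against Laser replicate 2.

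The loading factors and the coactivator were also higher. H2-DMb1 and H2-DMa, which exchange the invariant chain peptide for antigen, had 16.3 and 5.33 FPKM after Laser and 37.3 and 48.5 FPKM after PC-La, and 6.72 and 3.65 FPKM after Laser and 13.5 and 14.98 FPKM after PC-La, with log2 fold changes of 2.06 (SE 0.47) and 1.34 (SE 0.27). Ciita, the coactivator on chromosome 16 from 10480059 to 10528418, had 1.53 and 0.416 FPKM after Laser and 3.604 and 5.71 FPKM after PC-La. Its values stand for 70 to 815 reads per sample, its groups did not overlap, and the log2 fold change was 1.55 (SE 0.32, adjusted p = 0.471 from limma), with 1.14 against Laser replicate 1 and 1.97 against Laser replicate 2. H2-DMb2 was higher by 0.87, under the fold of the criterion. The 5 class II genes at the criterion other than Cd74 and Ciita lie on chromosome 17 between 34119541 and 34316674. The number at the criterion was 8 without Laser replicate 1, 6 without Laser replicate 2, 7 without PC-La replicate 1 and 4 without PC-La replicate 2.

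Among the chemokines, those that attract lymphocytes were higher. Cxcl9 had 32.7 and 42.6 FPKM after Laser and 77.8 and 129 FPKM after PC-La, with a log2 fold change of 1.400 (SE 0.30, adjusted p = 0.547 from limma) and with 1.59 against Laser replicate 1 and 1.21 against Laser replicate 2. Cxcl10 had 22.9 and 17.8 FPKM after Laser and 33.02 and 56.6 FPKM after PC-La and differed by 1.06 (SE 0.36). PC-La replicate 2 was the highest sample for both genes, and neither group overlapped the other. Cxcl16, a membrane-bound chemokine and ligand of CXCR6 on T cells, had 12.1 and 4.76 FPKM after Laser and 18.7 and 19.7 FPKM after PC-La, a difference of 1.22 (SE 0.43). Ccl5 did not pass the test at 1.26, and Ccl22 overlapped between the groups. The number of the 5 genes at the criterion was 3, and 4, 1, 2 and 1 without Laser replicate 1, Laser replicate 2, PC-La replicate 1 and PC-La replicate 2.

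Genes of the lymphocytes that these chemokines attract differed less. Of 11 tested T cell genes 0 met the criterion in limma and 1 had an unadjusted p under 0.05, the median difference was -0.01 against Laser replicate 1 and 0.61 against Laser replicate 2, and Cd8a, the coreceptor of cytotoxic T cells, had 2.97 and 1.31 FPKM after Laser and 3.15 and 2.74 FPKM after PC-La. Cd3e and Cd4 lay below the filter, with at most 0.928 FPKM. NK and cytotoxic genes were, as a list, higher against each Laser sample, with a median of 0.58, or 0.46 against Laser replicate 1 and 0.70 against Laser replicate 2 over 13 genes. Of these, 8 had both PC-La samples above both Laser samples and 2 had both below, against 20.4% and 21.6% of all genes tested. The 2 were Klra4, at -0.98 the lowest of the list, and Gzmc. Klra4 had 238 and 598 reads after Laser and 162 and 172 after PC-La, and Gzmc 89 and 99 after Laser and 69 and 51 after PC-La. Klrb1b, an inhibitory receptor of NK cells, was the member at the criterion, with 1.199 and 0.737 FPKM after Laser and 5.57 and 5.88 FPKM after PC-La. Both PC-La samples were far above both Laser samples, which gave 1.78 (SE 0.23, adjusted p = 0.406 from limma), and the values stand for 29 to 196 reads. Prf1, perforin, had 2.24 and 3.22 FPKM after Laser and 4.43 and 5.64 FPKM after PC-La and differed by 0.70, whereas the granzyme genes split. Gzmb, the main granzyme of T and NK cells, had 12.4 and 13.2 FPKM after Laser and 29.1 and 13.3 FPKM after PC-La. In the same cluster on chromosome 14, Gzmg, Gzmf and Gzmd, which were in no list, were lower, at -1.41, -1.31 and -1.13. All 3 met the criterion, with 4.57 and 7.09 FPKM after Laser and 1.67 and 1.75 FPKM after PC-La for Gzmf, and are near copies of one another. The NK marker Ncr1 had 0.372 and 0.147 FPKM after Laser and 1.58 and 0.868 FPKM after PC-La, below the filter.

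Dendritic cell and checkpoint genes were, as lists, higher against each Laser sample. The dendritic cell list had a median of 0.925, or 0.35 against Laser replicate 1 and 1.31 against Laser replicate 2. The groups overlapped in 2 of its 6 tested genes, and 4 other listed genes lay below the filter. Of 6 tested dendritic cell genes, Itgax (CD11c) and Cd83, a maturation marker, met the criterion, with 7.46 and 2.61 FPKM after Laser and 12.7 and 17.8 FPKM after PC-La and a difference of 1.54 (SE 0.42) for Itgax, and with 5.32 and 2.22 FPKM after Laser and 10.1 and 10.5 FPKM after PC-La and 1.32 (SE 0.33) for Cd83. Neither met it without Laser replicate 2 (0.92 and 0.83). Clec9a, a receptor of the dendritic cells that cross-present antigen, had 7.86 and 8.86 FPKM after Laser and 9.48 and 9.11 FPKM after PC-La. Of 12 tested checkpoint ligands and costimulators 0 met the criterion in limma and 3 had an unadjusted p under 0.05, with a median of 0.32, or 0.12 against Laser replicate 1 and 0.59 against Laser replicate 2. Cd274 (PD-L1) had 9.99 and 8.01 FPKM after Laser and 11.3 and 14.8 FPKM after PC-La, a difference of 0.48, and Cd86, a costimulator of T cells, 4.03 and 2.77 FPKM after Laser and 4.702 and 5.82 FPKM after PC-La, a difference of 0.52. Lgals9 and Nectin2 differed by 0.61 and 0.56.

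Macrophage genes held no shared direction, yet single myeloid genes were lower in PC-La against each Laser sample. The 19 macrophage identity genes had a median of 0.04, or 0.21 against Laser replicate 1 and 0.07 against Laser replicate 2. Both PC-La samples lay above both Laser samples in 8 and below both in 3, against 20.4% and 21.6% of all genes tested. Of the defining markers, Adgre1 had 17.6 and 18.8 FPKM after Laser and 20.5 and 20.6 FPKM after PC-La. Csf1r had 25.5 and 17.5 FPKM after Laser and 29.1 and 33.2 FPKM after PC-La. C1qa had 3753 and 3970 reads after Laser and 5557 and 5413 after PC-La, and Cd68 1129 and 1749 after Laser and 1096 and 1078 after PC-La. Arg1, the arginase of alternatively activated macrophages, had 71.2 and 204 FPKM after Laser and 23.8 and 28.04 FPKM after PC-La. Every PC-La value was under both Laser values, and the log2 fold change was -2.18 (SE 0.49, adjusted p = 0.638 from limma) with -1.43 against Laser replicate 1 and -2.93 against Laser replicate 2. Thbs1, the matrix protein thrombospondin 1, which macrophages and platelets release, had 76.5 and 53.2 FPKM after Laser and 21.1 and 27.2 FPKM after PC-La, a log2 fold change of -1.38 (SE 0.23, adjusted p = 0.419 from limma). Chil3, another marker of alternative activation, had 14.2 and 242 FPKM after Laser and 7.72 and 13.1 FPKM after PC-La, which did not pass the test, and the Laser samples lay far apart. Mrc1, the mannose receptor CD206, had 26.7 and 29.7 FPKM after Laser and 14.5 and 14.3 FPKM after PC-La and differed by -0.92, which did not pass the test. Spp1, osteopontin, was higher in PC-La with 847 and 621 FPKM after Laser and 1114 and 1192 FPKM after PC-La, a difference of 0.67 under the fold of the criterion.

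Receptors and chemokines of monocytes and granulocytes were among the lower genes. Clec4d, a C-type lectin that senses microbial lipids, had 22.3 and 36.1 FPKM after Laser and 8.403 and 7.94 FPKM after PC-La, with a log2 fold change of -1.68 (SE 0.22, adjusted p = 0.406 from limma) and with -1.34 against Laser replicate 1 and -2.02 against Laser replicate 2. Ms4a4a, a tetraspan membrane protein of macrophages, had 35.7 and 46.7 FPKM after Laser and 16.7 and 15.9 FPKM after PC-La and differed by -1.27 (SE 0.17). The groups were well apart in both genes, whereas their lists as a whole were near 0. The median of 11 C-type lectin receptors was 0.11 and that of 10 Ms4a genes 0.10. Fpr1 and Fpr2, receptors for formylated peptides of bacteria and mitochondria, had 4.997 and 8.77 FPKM after Laser and 1.88 and 1.36 FPKM after PC-La, and 5.596 and 9.84 FPKM after Laser and 2.57 and 3.25 FPKM after PC-La, and differed by -1.55 (SE 0.29) and -1.12 (SE 0.24). The chemokine genes Ccl6 and Ccl9, neighbours on chromosome 11 from 83572919 to 83593087, had 79.9 and 242 FPKM after Laser and 31.9 and 31.01 FPKM after PC-La, and 32.2 and 61.4 FPKM after Laser and 16.7 and 18.1 FPKM after PC-La. Their log2 fold changes were -2.11 (SE 0.49) and -1.31 (SE 0.30), and Laser replicate 2 was the highest sample for both. Cxcl14, a chemokine of epithelial and stromal cells, went the other way with 1.08 and 0.868 FPKM after Laser and 4.59 and 4.43 FPKM after PC-La and 1.48 (SE 0.24). As a list, 16 myeloid-attracting chemokines held no direction, at -0.32 against Laser replicate 1 and 0.60 against Laser replicate 2.

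Neutrophil genes depended on the Laser sample. Of 13 tested, 12 overlapped between the groups, with a median of -0.60 against Laser replicate 1 and 0.41 against Laser replicate 2, and Csf3r, the receptor for the neutrophil growth factor, had 12.1 and 2.84 FPKM after Laser and 7.68 and 7.24 FPKM after PC-La. Mmp8, the neutrophil collagenase, was the exception at 3.57 and 7.85 FPKM after Laser and 1.504 and 1.46 FPKM after PC-La, a difference of -1.36 (SE 0.30). Marco, a scavenger receptor, met the criterion as lower with 0.529 and 5.27 FPKM after Laser and 0 and 0.0347 FPKM after PC-La, where PC-La was at or near 0 and Laser replicate 1 had 0.529, and it did not without Laser replicate 2 (-0.59). It also fell short without either PC-La sample. Of the lower myeloid genes, Arg1, Clec4d, Ms4a4a and Ccl6 met the criterion under all 13 alternatives, and Ccl9 did not without Laser replicate 2 (-0.85).

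Single genes of platelet factors and of coagulation were lower, while the lists that hold them had no direction. Pf4 and Ppbp encode the platelet chemokines CXCL4 and CXCL7 and lie side by side on chromosome 5 between 90768518 and 90773383. Pf4 had 58.7 and 82.9 FPKM after Laser and 17.4 and 15.6 FPKM after PC-La, with -1.77 against Laser replicate 1 and -2.26 against Laser replicate 2, and a log2 fold change of -2.02 (SE 0.28, adjusted p = 0.406 from limma). Ppbp had 15.4 and 6.697 FPKM after Laser and 1.36 and 1.91 FPKM after PC-La and a log2 fold change of -2.102 (SE 0.36). Both genes met the criterion under all 13 alternatives, among them the fits without any 1 of the 4 samples. The platelet list as a whole held no direction over 6 tested genes (median -0.02, 3 with overlapping groups), and the platelet receptor genes Itga2b and Gp9 lay below the filter, with 1.400 and 0.675 FPKM after Laser and 1.28 and 0.907 FPKM after PC-La for Itga2b and 0.217 and 0.322 FPKM after Laser and 0.0726 and 0 FPKM after PC-La for Gp9. The coagulation factor genes F7 and F10, next to each other on chromosome 8, had 1.68 and 5.699 FPKM after Laser and 0.241 and 0.359 FPKM after PC-La, and 7.06 and 8.67 FPKM after Laser and 2.76 and 3.55 FPKM after PC-La. They differed by -1.71 (SE 0.48) and -1.09 (SE 0.16), and F13a1, the clot-stabilising transglutaminase, by -1.72 (SE 0.58) with 9.65 and 31.2 FPKM after Laser and 5.42 and 3.94 FPKM after PC-La. The list of matrix proteases, inhibitors, plasminogen system and coagulation genes had a median of 0.15 over 25 genes, with 2 higher and 3 lower at the criterion. F3, tissue factor, overlapped between the groups with 34.1 and 16.8 FPKM after Laser and 33.2 and 26.1 FPKM after PC-La.

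**Figure D4:**
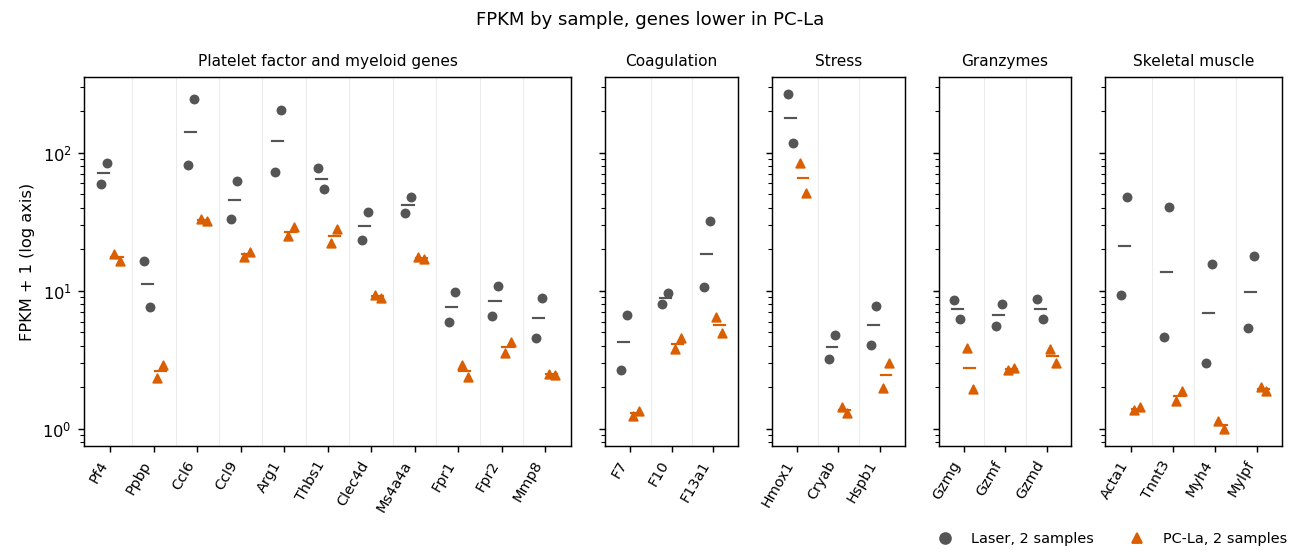
FPKM + 1 on a log axis for genes lower in PC-La, with Laser samples as circles and PC-La samples as triangles, replicate 1 left of replicate 2, and a line at each group's mean on the log scale. Both PC-La samples lie under both Laser samples in every gene drawn, and the muscle genes are highest in Laser replicate 2.

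Targets of NRF2, which answers oxidative stress, were more often under than above Laser in PC-La. NRF2 is the transcription factor that induces glutathione synthesis and detoxifying enzymes. Of 21 tested targets 0 met the criterion as higher and 1 as lower in limma (6 had an unadjusted p under 0.05). Both PC-La samples lay under both Laser samples in 11 and above both in 4, against 21.6% and 20.4% of all genes tested. The median was -0.28, or -0.26 against Laser replicate 1 and -0.25 against Laser replicate 2. Hmox1, heme oxygenase, had 265 and 117 FPKM after Laser and 83.4 and 50.4 FPKM after PC-La, a log2 fold change of -1.43 (SE 0.43, adjusted p = 0.753 from limma) and differences of -2.01 against Laser replicate 1 and -0.84 against Laser replicate 2. Laser replicate 1 was the highest sample and PC-La replicate 2 the lowest, and the call was lost when Laser replicate 1 or PC-La replicate 2 was left out. Gclc and Gclm, the enzymes of glutathione synthesis, had 12.6 and 17.8 FPKM after Laser and 9.19 and 9.99 FPKM after PC-La, and 9.39 and 13.2 FPKM after Laser and 6.79 and 7.05 FPKM after PC-La, and differed by -0.59 and -0.62. Nqo1, another target, had 9.01 and 6.68 FPKM after Laser and 9.85 and 9.98 FPKM after PC-La. The 17 antioxidant enzymes had a median of 0.00 against Laser replicate 1 and -0.06 against Laser replicate 2, with 0 at the criterion in limma and 2 at an unadjusted p under 0.05.

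Of the other stress lists, that of ATF4, the factor of the integrated stress response to amino acid shortage and unfolded protein, was lower. Its median was -0.34, or -0.20 against Laser replicate 1 and -0.39 against Laser replicate 2 over 18 genes. Both PC-La samples lay under both Laser samples in 8 of the 18, against 21.6% of all genes tested. In limma 0 of the 18 met the criterion, with 4 at an unadjusted p under 0.05. Slc7a5, an amino acid transporter, had 51.3 and 54.9 FPKM after Laser and 34.3 and 42.8 FPKM after PC-La, a difference of -0.46. Its relative Slc7a1 and the mitochondrial folate enzyme genes Shmt2 and Aldh1l2 differed by -0.50, -0.51 and -0.79. Cytosolic heat shock genes held no direction, and the inducible chaperone Hspa1a had 3.28 and 0.439 FPKM after Laser and 1.16 and 1.42 FPKM after PC-La. The small heat shock genes Cryab and Hspb1 met the criterion as lower, with 2.24 and 3.83 FPKM after Laser and 0.433 and 0.316 FPKM after PC-La, and 3.09 and 6.81 FPKM after Laser and 0.993 and 2.01 FPKM after PC-La. They differed by -1.53 (SE 0.27) and -1.21 (SE 0.34), and both are also made by muscle. In the 20 genes of endoplasmic reticulum stress and the 12 NF-kB genes, 0 met the criterion in limma and 0 had an unadjusted p under 0.05, and all 12 NF-kB genes overlapped between the groups.

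p53 targets were higher, mostly against Laser replicate 2. Of 18 tested, 3 met the criterion and the median was 0.33, or 0.12 against Laser replicate 1 and 0.53 against Laser replicate 2. Ccng1, cyclin G1, had 43.1 and 28.6 FPKM after Laser and 86.7 and 79.4 FPKM after PC-La, a log2 fold change of 1.22 (SE 0.36, adjusted p = 0.753 from limma) and differences of 0.93 against Laser replicate 1 and 1.51 against Laser replicate 2. Trp53inp1 and Eda2r, a stress protein and a death receptor family member, differed by 1.12 (SE 0.42) and 1.13 (SE 0.40). Cdkn1a (p21), the cell cycle inhibitor, had 28.8 and 17.4 FPKM after Laser and 34.9 and 32.5 FPKM after PC-La, a difference of 0.57 that did not pass the test. In the fits without 1 of the samples, the 3 became 4 without Laser replicate 1 and 0, 0 and 0 without Laser replicate 2, PC-La replicate 1 and PC-La replicate 2. Of 29 genes of the cell death machinery 0 met the criterion in limma and 0 had an unadjusted p under 0.05, with a median of 0.15, or 0.10 against Laser replicate 1 and 0.21 against Laser replicate 2. Gsdmd, the pore-forming protein of pyroptosis, Casp1, the caspase that cuts it, Bcl2, an inhibitor of apoptosis, and Acsl4, an enzyme of ferroptosis, differed by 0.62, 0.29, 0.70 and 0.38. Of the 29 genes, 9 had both PC-La samples above both Laser samples and 4 had both below, where 20.4% and 21.6% of all genes tested did so. Bcl2l1, of the same family as Bcl2, was the lowest at -0.51, with 1204 and 2657 reads after Laser and 1160 and 1109 after PC-La.

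Lists of blood, muscle and stroma had large differences whose size depended on the Laser sample. Hemoglobin genes were higher, with 76.96 and 9.15 FPKM after Laser and 172 and 226 FPKM after PC-La for Hbb-bs and 10.1 and 0.967 FPKM after Laser and 21.03 and 39.5 FPKM after PC-La for its near copy Hbb-bt. They differed by 1.34 against Laser replicate 1 and 4.29 against Laser replicate 2, and by 1.42 against Laser replicate 1 and 3.93 against Laser replicate 2, respectively, and Alas2, the enzyme that starts heme synthesis in red cell precursors, by 1.33 (SE 0.28). Over 5 tested erythroid genes the median was 2.67, or 1.04 against Laser replicate 1 and 3.92 against Laser replicate 2, and 5, 3, 1 and 1 met the criterion without Laser replicate 1, Laser replicate 2, PC-La replicate 1 and PC-La replicate 2, compared to 3 with all samples. Skeletal muscle genes were lower in all 12 tested, with a median of -2.14, or -0.81 against Laser replicate 1 and -3.25 against Laser replicate 2. The filter on the mean of all samples favoured this direction. The median tested member had 1.97 and 15.6 FPKM after Laser and 0.27 and 0.298 FPKM after PC-La, so that many passed through the Laser samples. Another 18 listed members lay below the filter, and that all 12 were lower is therefore no separate support. Acta1, skeletal actin, had 8.28 and 46.4 FPKM after Laser and 0.375 and 0.435 FPKM after PC-La, and the log2 fold change was -3.901 (SE 0.87, adjusted p = 0.65 from limma). The other muscle genes at the criterion were Tnnt3, Myh4, Myh1, Mylpf and Ckm, between -2.97 and -1.84. The number at the criterion was 6, and 11, 5, 1 and 2 without Laser replicate 1, Laser replicate 2, PC-La replicate 1 and PC-La replicate 2. The summed muscle FPKM was highest in Laser replicate 2, the sample with the lowest class II values, and its part in those results was not tested.

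Fibroblast and matrix genes followed the same split between the Laser samples. Dcn, decorin of fibroblasts, had 184 and 25.6 FPKM after Laser and 365 and 265 FPKM after PC-La, with 0.75 against Laser replicate 1 and 3.56 against Laser replicate 2, and the 12 fibroblast and mural cell genes had a median of 0.80, or 0.16 against Laser replicate 1 and 1.51 against Laser replicate 2, with 0 at the criterion in limma and 0 at an unadjusted p under 0.05. The other defining markers, Pdgfra and Col1a1, overlapped between the groups. Pdgfra had 3768 and 982 reads after Laser and 3772 and 3027 after PC-La. Col1a1 had 1681 and 221 reads after Laser and 1242 and 1316 after PC-La. Dpt, Fap and Postn, other genes of activated fibroblasts and their matrix, differed by 1.53, 1.34 and 0.83, with groups that did not overlap. Of 29 collagens and matrix proteins, Fn1, fibronectin, was the higher gene at the criterion with 351 and 134 FPKM after Laser and 500.2 and 472 FPKM after PC-La and 1.16 (SE 0.44), and Loxl2, a collagen crosslinking enzyme, the lower one with 2.896 and 11.3 FPKM after Laser and 1.24 and 1.84 FPKM after PC-La and -1.45 (SE 0.56). Neither met it without Laser replicate 2 (0.47 and -0.63). The median of the list was 0.58, or 0.10 against Laser replicate 1 and 0.98 against Laser replicate 2. Of the matrix proteases, Mmp10, stromelysin 2, exceeded each Laser sample by over 1, with 3.47 and 0.526 FPKM after Laser and 10.1 and 12.8 FPKM after PC-La, a log2 fold change of 2.24 (SE 0.49, adjusted p = 0.607 from limma) and differences of 1.47 against Laser replicate 1 and 3.02 against Laser replicate 2. Plau, urokinase, met the criterion with 89.8 and 39.4 FPKM after Laser and 115 and 168 FPKM after PC-La and 1.21 (SE 0.44), and 0.62 against Laser replicate 1 alone. The 24 endothelial genes differed less, with a median of 0.16, or 0.09 against Laser replicate 1 and 0.30 against Laser replicate 2, 0 at the criterion in limma and 1 at an unadjusted p under 0.05, which was Sele, the adhesion molecule E-selectin, at 0.85. Cdh5, the cadherin of vessel walls, had 8.46 and 6.57 FPKM after Laser and 9.24 and 14.1 FPKM after PC-La. The other defining markers, Pecam1 and Kdr, overlapped between the groups. Pecam1 had 749 and 673 reads after Laser and 734 and 809 after PC-La. Kdr had 209 and 135 reads after Laser and 142 and 247 after PC-La.

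Among the 15 higher genes that exceeded each Laser sample by the largest amounts, 2 belonged to no list. Slamf9, a receptor of macrophages and plasmacytoid dendritic cells, had 9.01 and 6.77 FPKM after Laser and 25.5 and 29.7 FPKM after PC-La, with a log2 fold change of 1.69 (SE 0.28, adjusted p = 0.419 from limma) and with 1.51 against Laser replicate 1 and 1.88 against Laser replicate 2. Gpha2, a glycoprotein hormone subunit, had 0.744 and 0.589 FPKM after Laser and 3.07 and 4.17 FPKM after PC-La, a log2 fold change of 1.46 (SE 0.32) from 8 to 48 reads. Both PC-La samples were above both Laser samples in each.

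Of 47 lists with at least 3 tested genes, 15 were higher and 4 lower against each Laser sample by over 0.1 relative to the median of all genes, and 28 were neither. Metabolic and growth programmes were mostly among the last. Hypoxia-induced genes had medians of -0.20 and 0.07 against Laser replicates 1 and 2, glycolysis genes -0.08 and -0.16, cytosolic ribosomal proteins 0.04 and -0.24, and nuclear-encoded respiratory chain subunits 0.05 and 0.06. The 12 mitochondrially encoded genes had -0.10 and -0.53, and the most expressed of them, mt-Co1, had 9749 and 14754 FPKM after Laser and 8699 and 8710.1 FPKM after PC-La. Mitosis genes were lower by small amounts, with medians of -0.12 and -0.18. Both PC-La samples lay under both Laser samples in 13 of 28, against 21.6% of all genes tested. Cdc20, an activator of the anaphase-promoting complex, had 59.5 and 67.6 FPKM after Laser and 50.7 and 48.3 FPKM after PC-La, a difference of -0.35, and Kif23, Ndc80 and Anln, of the spindle and the cleavage furrow, differed by -0.31, -0.33 and -0.34. In these 6 lists 0 genes met the criterion in limma, and between 0 and 2 genes of each had an unadjusted p under 0.05. Of the 21 genes of heme and iron handling, Trf, transferrin, met it with 5.65 and 2.56 FPKM after Laser and 9.35 and 10.2 FPKM after PC-La and 1.15 (SE 0.33), and 0.70 against Laser replicate 1 alone. Lysosome, complement, autophagy and lipid synthesis genes had medians of 0.07, 0.00, 0.09 and -0.05, with 0 at the criterion in limma and between 0 and 3 of each at an unadjusted p under 0.05.

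**Figure D5:**
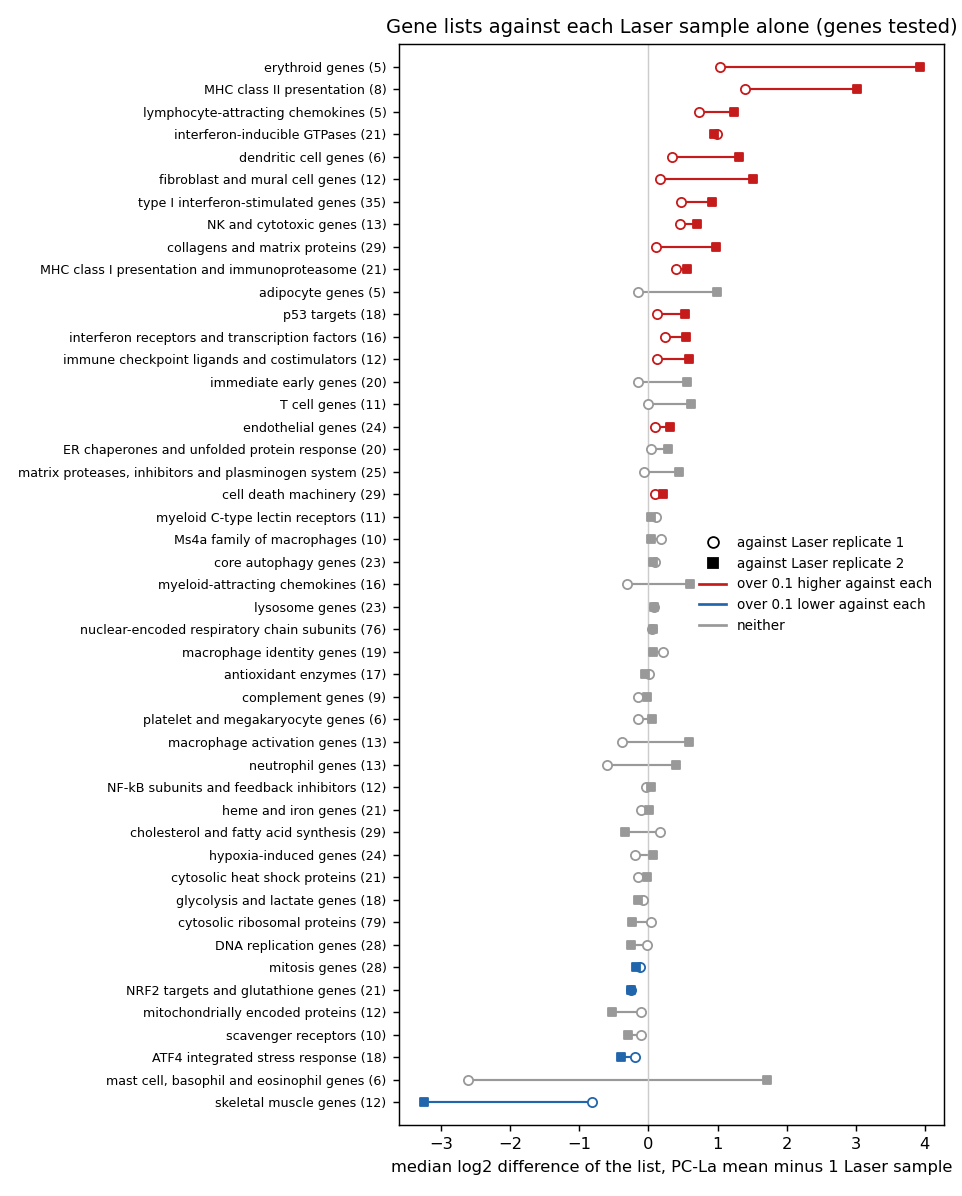
Median log2 difference of each list (number of tested genes in parentheses) between the PC-La mean and Laser replicate 1 (open circles) or Laser replicate 2 (filled squares), in log2(FPKM + 1). The 2 symbols nearly coincide for interferon-inducible GTPases, at 0.99 and 0.95, and lie on opposite sides of 0 for mast cell genes, at -2.60 and 1.72.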

How the data were processed

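RNA of 6 tumor samples, 2 in each of 3 groups, was sequenced from NEBNext Ultra II libraries, for which strandedness was not stated. The authors' deposited table holds FPKM per gene. The submitters' processing notes name HISAT2 2.0.5, HTSeq 0.9.1, DESeq 1.30.0 and build mm9, whereas the gene lengths implied by the FPKM match GENCODE M21 on GRCm38. About 98% of values gave whole reads (tolerance 0.05). Genes whose 6 values averaged 1 FPKM or more were fitted as log2(FPKM + 1) with limma 3.58.1 (trend and robust estimation, no block) in R 4.3.3, on the 3 groups together, which gave a median of 6.4 degrees of freedom. P-values were adjusted over all 10853 genes (Benjamini-Hochberg), and the procedure was tested on simulated data. All simulated samples had the same spread, so the simulation does not cover a sample that stands apart, as Laser replicate 2 does. An exact permutation test of 2 against 2 samples cannot go below p = 0.333. Differences from a single Laser sample carry no test.

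The comparison, its gene lists and the named genes were chosen with earlier results of these data known. Named were, in each direction, the 15 genes at the criterion with the largest smaller difference from the single Laser samples. Of each list, the members at the criterion were named, otherwise up to 4 with the largest such difference, and part of the defining cell markers. Genes outside this rule (Irf1, Irf7, Irf9, Stat2, Ifnar1, Ifngr1, Gbp2, Oas2, B2m, H2-K1, H2-D1, H2-DMb2, Ccl5, Ccl22, Klra4, Prf1, Gzmb, Gzmc, Gzmd, Gzmf, Clec9a, Chil3, Mrc1, Spp1, Fpr2, F3, Gclc, Gclm, Nqo1, Hspa1a, Cdkn1a, Bcl2l1 and mt-Co1) were chosen after their values were seen. Some genes are not reported here. Promoters were read from RefSeq on GRCm38.p6. Alternatives covered the pseudocount, the filter, the scaling, the estimation, the samples fitted and a replicate block. The groups share replicate numbers 1 and 2.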

Additional observations from a re-analysis of the deposited data

How the results depend on the processing

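Under the alternatives, list medians moved by less than the spread between replicates in 376 cases and by more in 47. This spread was the standard deviation of the list's median over the replicates. Leaving out 1 of 2 samples usually moves a median by no more than about this spread. Those cases therefore say little about stability. The sign changed under at least 1 alternative in 0 of the 19 lists with a direction and in 17 of the 28 without one, in 16 of them when a Laser sample was left out (mast cell genes from -0.35 to 1.72 without Laser replicate 1). For the fits without a Laser sample this split follows from the definition. A list was given a direction only where it had the same sign against each Laser sample alone. Leaving out each sample in turn gave 38 to 518 higher and 27 to 146 lower genes at the criterion, 3175 to 4858 genes with both PC-La samples above and 3418 to 4515 below, the sample left alone in its group being assumed to vary like the other groups. Without Laser replicate 1, 312 genes had an adjusted p under 0.05 from limma, against 0 with all samples. A minimum mean of 5 FPKM gave 47 higher and 21 lower genes and 1438 above, and no filter 3367 above, from fewer or more genes tested. The replicate block gave 85 higher and 48 lower genes. With the block, genes at the criterion went from 3 to 1 among erythroid genes and among p53 targets, and from 6 to 9 among muscle genes. The other lists changed little. Deviations of same-numbered samples correlated at 0.086 over the genes. With only 2 pairs this cannot settle whether the numbers pair the samples, and the main fit treated them as names only. A pseudocount of 0.1 gave 130 higher and 67 lower genes, quantile scaling 90 and 46. Depth limits genes under about 1 FPKM, which were not tested.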

Other observations

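Among the 50 higher genes in none of the lists were further genes known to respond to interferon, picked after their values were seen. Ubd, a ubiquitin-like protein of antigen presentation, had 8.54 and 8.58 FPKM after Laser and 16.5 and 22.8 FPKM after PC-La, and differed by 1.095 against Laser replicate 1 and 1.09 against Laser replicate 2. Ifi206, a member of the DNA-sensing Ifi200 family, had 2.62 and 1.17 FPKM after Laser and 6.16 and 6.89 FPKM after PC-La, and differed by 1.05 against Laser replicate 1 and 1.79 against Laser replicate 2. Both lay over 1 above each Laser sample. Ifi208 and Mndal of the same family, Parp12, Apol6 and Phf11d met the criterion with log2 fold changes of 1.16, 1.05, 1.11, 1.05 and 1.02.

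Receptors and signalling proteins of myeloid cells were also among these 50. Ly86, a partner of a Toll-like receptor family protein, had 5.68 and 3.43 FPKM after Laser and 11.03 and 12.5 FPKM after PC-La, and differed by 0.93 against Laser replicate 1 and 1.52 against Laser replicate 2. Cd72, Lilra5, Siglece, Cd300e and Lst1 met the criterion too, with log2 fold changes of 1.79, 1.49, 1.13, 1.304 and 1.38, while the macrophage identity list as a whole stood at 0.04. Of the 23 lower genes in no list, Msln, mesothelin of mesothelial and carcinoma cells, had 8.35 and 60.7 FPKM after Laser and 3.65 and 3.23 FPKM after PC-La, highest in Laser replicate 2. Adm2, a hormone of the calcitonin family, had 2.21 and 3.62 FPKM after Laser and 0.542 and 0.566 FPKM after PC-La, and differed by -1.04 against Laser replicate 1 and -1.57 against Laser replicate 2.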
